A study of Saccharomyces cerevisiae with 25 samples.

Results

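The genes described here encode the proteins of the large subunit of the cytosolic yeast ribosome. They were chosen by name, as RPL followed by a number or RPP followed by 0, 1 or 2, each with or without a final A or B. Of 6648 gene names in the table, 82 matched. RPP1 was set aside, because that name belongs to a subunit of the RNA-processing enzymes RNase P and RNase MRP and not to a ribosomal protein. The 81 genes left comprise 35 pairs with an A and a B gene (70 genes) and 11 single genes. They are counted as 46 proteins, where each of the pairs RPP1 and RPP2 counts once although its A and B genes encode related, distinct proteins. They lie on 14 chromosomes, and 53 of them have an intron. The rule uses names and no measured value, but it was set with earlier results of these data known. Of the 81, 78 were listed in all 25 libraries, and all 81 had enough values to be tested.

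RNA was sequenced in bulk from a single time course of a BY4741 strain labelled pho84pr-YFP, delta-phm3: it expresses a yellow fluorescent protein from the promoter of the phosphate transporter gene PHO84, and its label gives a deletion of PHM3, now called VTC4, which encodes the polyphosphate polymerase of the vacuole. The 24 libraries from no phosphate medium, taken every 15 min, are set here in windows of 8 neighbouring times: early (15 to 120 min), middle (135 to 240 min) and late (255 to 360 min). They are compared with 1 library from high phosphate medium at 0 min, and the genotype on the labels is the same in all 25 libraries. No time had a replicate, and a strain with PHM3 was not analysed here, so the values describe the response of this strain without telling what its genotype adds.

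The libraries held a median of 746734 reads; the deepest was that at 105 min (1911747 reads) and the shallowest were those at 195 min (106672) and 345 min (188278). VTC4 (chromosome X, 411234 to 413399, R64) was listed in all 25 libraries with 50 to 517 reads, at 8.04 ± 0.24 log2 RPM (SD, n = 25), which goes against the label, so the libraries are called those labelled phm3_del. RPM means reads per 1000000 listed reads of a library. Genes of MATa cells were present, as in BY4741 (MFA1 averaged 10.75 and MFA2 10.78 log2 RPM), while of the MAT alpha genes MF(ALPHA)1 had a value in 1 library and MF(ALPHA)2 in none. The alpha genes STE3 and SAG1 were listed at low levels, in 22 and 19 libraries (means 4.85 and 4.34 log2 RPM). Because all values are shares of a library, a fall of abundant transcripts lifts the others: the median gene tested stood 0.42 (log2) higher in the late window than at 0 min.

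The large subunit joins the amino acids of a growing protein and holds the exit tunnel through which that protein leaves. Yeast makes its ribosomal proteins from a small set of very active genes, many of them kept as pairs of near copies since an ancient whole-genome duplication, and growing cells spend a large part of their transcription on them. Nutrient signals that act through the TOR and protein kinase A pathways are known to set the output of these genes, with Rap1, Fhl1, Ifh1 and Sfp1 as their main promoter proteins. In bulk RNA, a lower value can come from fewer cells that express a gene or from less RNA per cell, and these cannot be told apart here.

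How the copies of a pair differ in sequence decides how far their reads can be told apart. Sequences are from RefSeq, build R64, written 5′ to 3′ from the first base of the coding sequence, and capitals mark the bases at which the copies differ. The first 120 coding bases of RPL15A (chromosome XII, 201976 to 202590, minus strand) and RPL15B (chromosome XIII, 509734 to 510348, minus strand) are shown because this pair changed most, and they differ at 6 bases:
RPL15A: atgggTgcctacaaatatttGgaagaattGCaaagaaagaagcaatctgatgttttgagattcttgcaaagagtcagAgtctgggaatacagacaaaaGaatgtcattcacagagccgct
RPL15B: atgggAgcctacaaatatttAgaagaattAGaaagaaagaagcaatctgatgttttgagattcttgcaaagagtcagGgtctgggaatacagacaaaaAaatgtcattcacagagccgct
The same stretch of RPL31A (chromosome IV, 322226 to 322988, plus strand) and RPL31B (chromosome XII, 931065 to 931755, minus strand) differs at 12 bases and stands for the pairs whose reads could mostly be assigned:
RPL31A: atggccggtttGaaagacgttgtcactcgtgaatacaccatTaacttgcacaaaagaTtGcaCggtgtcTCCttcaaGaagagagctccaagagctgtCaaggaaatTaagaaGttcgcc
RPL31B: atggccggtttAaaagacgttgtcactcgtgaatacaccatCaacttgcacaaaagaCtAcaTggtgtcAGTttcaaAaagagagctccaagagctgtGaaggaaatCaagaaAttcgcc
RPL41A (chromosome IV, 130407 to 130484, minus strand) and RPL41B (chromosome IV, 221724 to 221801, minus strand) encode the smallest protein of the ribosome, and their whole coding sequences of 78 bases differ at 1:
RPL41A: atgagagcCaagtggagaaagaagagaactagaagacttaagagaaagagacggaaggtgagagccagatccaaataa
RPL41B: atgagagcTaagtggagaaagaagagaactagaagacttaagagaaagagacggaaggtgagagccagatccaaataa

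Reads of similar copies were divided between them in the deposited values. A gene holding only reads of its own has a whole number of reads in every library, and this was the case in all 25 libraries for 13 of the 81 genes, namely all 11 single genes, RPP1A and RPL22B. For 60 genes the number was whole, within 0.02 reads, in fewer than 5 libraries, and for the other 8 genes in 5 to 24. In 29 of the 35 pairs both copies were whole in fewer than 5 libraries, and in 25 of those 29 the sum of A and B was whole in every library that listed both. RPL15A and RPL15B, for example, were each whole in 4 libraries and their sum in 25 of 25.

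The split of whole and divided pairs followed the longest stretch of identical coding sequence. The 29 divided pairs shared a run of 35 to 422 bases. The 4 pairs with both copies whole in 5 or more libraries (RPL16, RPL22, RPL27 and RPL31) shared at most 32 bases. The remaining pairs are the stalk genes RPP1A and RPP1B, and RPP2A and RPP2B, which encode related but distinct proteins. Compared position by position without gaps, 46.4% of bases were identical between RPP1A and RPP1B, and an alignment with gaps was not made. In the pairs RPP1 and RPP2 the longest runs were 23 and 30 bases, yet RPP1B and RPP2A were each whole in only 1 library. RPP1B and RPP2A share a run of 45 bases with each other, across the pairs, and their sum was whole in 12 libraries. RPL40A and RPL40B, which are made as fusions with ubiquitin, had a whole sum in 10 libraries, while the sum with the ubiquitin genes RPS31 and UBI4 was whole in 15. Single values of A and B copies are therefore not independent measurements, and results are given for the sums as well.

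**Figure D1:**
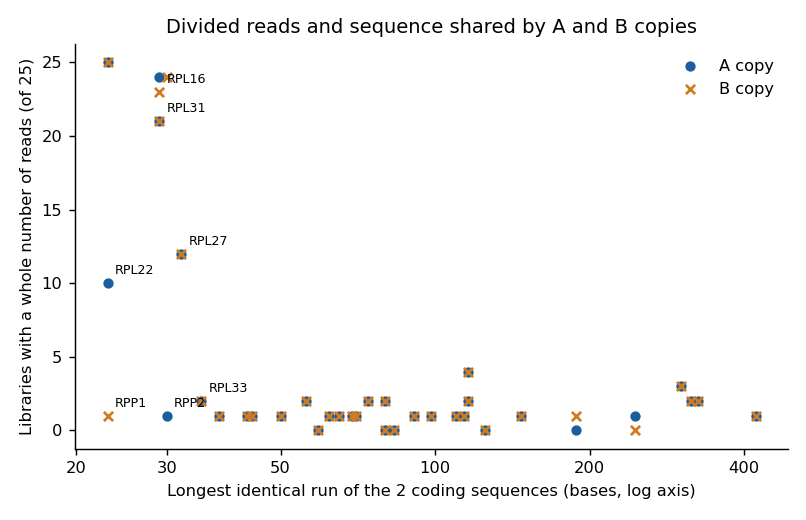
Longest identical coding run of each of the 35 large subunit A and B pairs (bases, log axis) against the number of libraries, of 25, in which each copy held a whole number of reads (circles, A; crosses, B). Each of these pairs that shares 35 bases or more lies below 5 libraries for both copies.

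The share of all listed reads on the large subunit genes changed in waves. At 0 min it was 21.2%. After 15, 30, 45 and 60 min without phosphate it was 16.9%, 10.99%, 6.96% and 6.24%. The values at 75, 90 and 105 min were higher again, at 11.02%, 18.2% and 20.5%, the last close to that at 0 min. They were followed by 12.4% at 120 min and 5.42% at 135 min. From 150 min on it lay between 2.74% (285 min) and 3.72% (330 min), apart from 4.99% in the shallow library at 195 min. The window means were 12.9 ± 5.20% early, 3.65 ± 0.989% middle and 3.21 ± 0.360% late (SD, n = 8 each). All 8 late libraries lay below all 8 early libraries and below 0 min. The small subunit genes moved in parallel: the ratio of large to small subunit reads stayed between 1.52 and 1.83, with 1.66 ± 0.020 late (SD, n = 8) and 1.59 at 0 min.

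**Figure D2:**
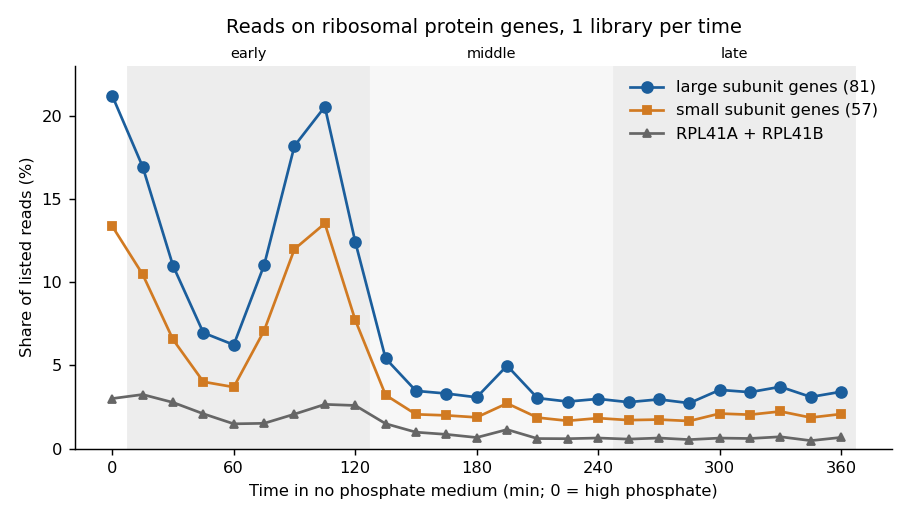
Share of listed reads (%) on the 81 large subunit genes, on the 57 small subunit genes and on RPL41A plus RPL41B, against time in no phosphate medium (min; 0 is high phosphate, 1 library per time). The large subunit share drops to 6.24% at 60 min, is 20.5% at 105 min and stays at 2.74 to 5.42% from 135 min on.

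In the late window 80 of the 81 genes were lower than at 0 min and 0 were higher (limma across all genes, Benjamini-Hochberg adjusted p under 0.05), against 5.46% of all genes tested called lower. The median difference was -2.92 on the log2 scale, where the median over all genes was 0.42, and the same held for 56 of 56 small subunit genes tested (median -2.94). The lowest were RPL9A, RPL8A, RPL21A, RPL16A, RPL12A and RPL16B, between -3.57 and -3.26 (RPL16B was not listed at 345 min, RPL21A not at 195 and 345 min, and their fits leave those out). RPL9A encodes a protein near the base of the stalk, and RPL12A one at the stalk base itself. RPL9A stood at 6.58, 7.33 and 7.61 log2 RPM (lowest, median and highest of 8 late libraries), against 10.77 at 0 min, an 11.8-fold difference (SE 0.57 log2, adjusted p = 4.52e-05 by limma). RPL8A stood at 5.76, 6.01 and 6.33, against 9.48 at 0 min, 10.8-fold lower (SE 0.62, adjusted p = 0.000148 by limma). Every late value of both genes lay at least 3 log2 units under the 0 min value.

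At the other end, RPL4A, RPL22B, RPL1A, RPL18B and RPL14B fell least, by 1.79 to 2.08. RPL4A encodes a protein of the wall of the exit tunnel, and it stood at 8.58, 8.92 and 9.43 log2 RPM in late libraries, against 10.73 at 0 min (3.45-fold lower, adjusted p = 0.000625 by limma). RPL1A encodes a copy of the protein of the mobile stalk on the tRNA exit side, and it was 3.80-fold lower (8.71, 8.83 and 9.47 late, against 10.83 at 0 min). RPL22B (difference -1.86, SE 0.68, adjusted p = 0.0393 by limma) missed the threshold once any of the libraries at 255, 270 and 285 min was removed (adjusted p 0.0504 to 0.0527).

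RPL15B was the 1 gene that was not called. It stood at 6.65, 7.05 and 7.58 log2 RPM in late libraries, against 6.32 at 0 min, so all 8 late libraries lay above that library. The difference was 0.75 (SE 0.37, 95% interval 0.0011 to 1.51, adjusted p = 0.122 by limma), and it was 0.18 with each library centred on its median gene. Its partner RPL15A gave nearly all of the RPL15 reads at 0 min and most of them late. It stood at 8.34, 9.30 and 9.53 in late libraries, against 12.09 at 0 min (-2.86, SE 0.46, adjusted p = 4.52e-05 by limma). The RPL15 protein is essential and makes wide contact with ribosomal RNA. Before scaling for depth, RPL15B held 36 to 130 reads per late library and 117 at 0 min.

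**Figure D3:**
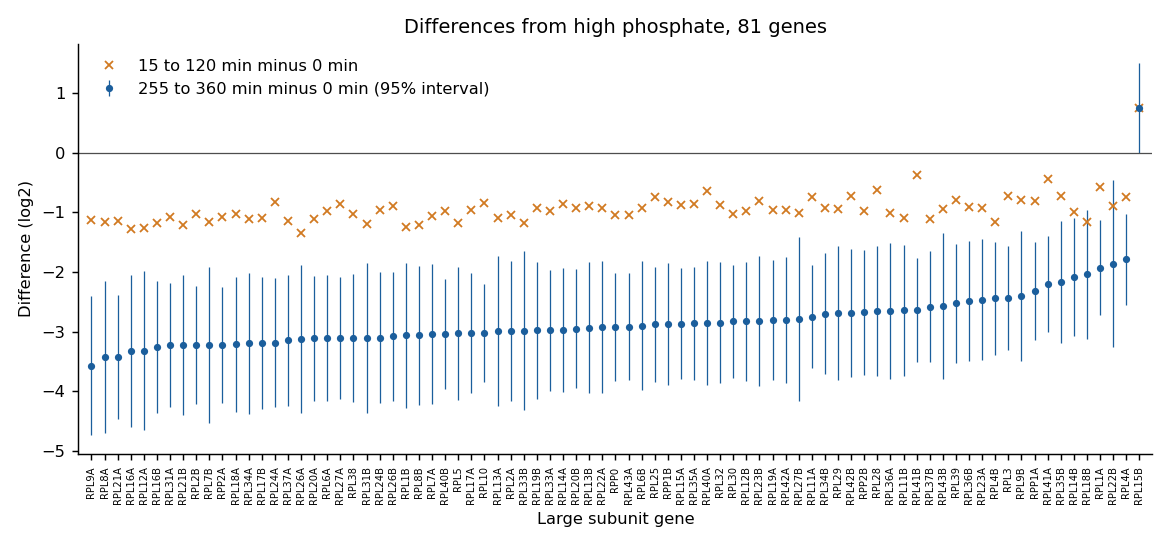
Difference from 0 min (log2) for each of the 81 genes, ordered by the late value: late window with its 95% interval (circles) and early window (crosses). All late points lie at -1.79 or below except RPL15B at 0.75, and the early points of the other 80 genes lie between -1.35 and -0.38.

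The single genes, whose reads were never divided, gave the same picture: 11 of 11 were lower late, by a median of -2.85 (range -3.11 to -2.43). RPL10, the protein that joins the particle last and is needed for the subunits to meet, stood at 7.96, 8.77 and 9.11 log2 RPM late, against 11.70 at 0 min (8.09-fold lower). RPL5, which carries the small ribosomal RNA called 5S into the particle, was 8.16-fold lower. RPL3, which reaches to the catalytic centre, was 5.39-fold lower, the smallest difference of the 11 genes. With A and B added for every pair of the table, 46 of 46 proteins were lower, between -3.41 (RPL16) and -2.004 (RPL4), against 4.28% of all features lower in that fit. The same sums gave 46 of 46 lower late than early (7.7% of all features), and 0 of 46 lower late than in the middle window (1.01%) or early than at 0 min (0%).

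The stalk is the flexible arm that recruits the elongation factors. RPP0 anchors it and the RPP1 and RPP2 proteins bind to RPP0 in pairs. All 5 stalk genes fell, with differences of -3.22 (RPP2A), -2.92 (RPP0), -2.87 (RPP1B), -2.67 (RPP2B) and -2.32 (RPP1A). RPP0 stood at 8.44, 8.82 and 9.10 log2 RPM late, against 11.70 at 0 min. RPP1A stood at 10.02, 10.23 and 10.50 late, against 12.56 at 0 min, and so was 4.98-fold lower (SE 0.40, adjusted p = 9.50e-05 by limma). No late library reached the 0 min value in any of them.

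In the early window 0 of 81 genes were called against 0 min, and 22 had an unadjusted p under 0.05; among all 4613 genes 0% were called lower and 0.694% higher, and 647 had an unadjusted p under 0.05. The median difference was -0.97. The window holds both the first drop and the return at 90 and 105 min, so its spread is wide. Without the 90 and 105 min libraries 36 of 81 genes were lower, against 1.76% of all genes in that fit, and with libraries weighted by their fit 64 were lower, against 4.96%. Relative to 0 min, the median gene stood at -0.42 at 15 min, -1.95 at 45 min and -1.998 at 60 min. Its values at 90 and 105 min were -0.23 and -0.05, and at 105 min 48 of 81 genes were below their 0 min value.

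The genes kept different pace in this first drop. At 15 min RPL22B (-1.03), RPL18B (-1.003) and RPL7B (-0.95) were the lowest relative to 0 min. At 45 min RPL16A (-2.82), RPL33B (-2.79) and RPL31B (-2.78) were lowest, whereas RPL41B (-0.43), RPL41A (-0.55) and RPL1A (-1.13) had moved least among those below 0 min, and RPL15B stood at 0.99. RPL41 thereby took 30.2% of all large subunit reads at 45 min, against 14.2% at 0 min. At 90 min its share was 11.4%, at 150 min 28.7%, and in the late window 19.3 ± 1.88% (SD, n = 8). At 90 min 61 of 81 genes were below their 0 min value, and RPL22B (0.66), RPL15B (0.65), RPL9B (0.51) and RPL27B (0.43) stood furthest above it. Each of these is a value from 1 library and was not tested.

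**Figure D4:**
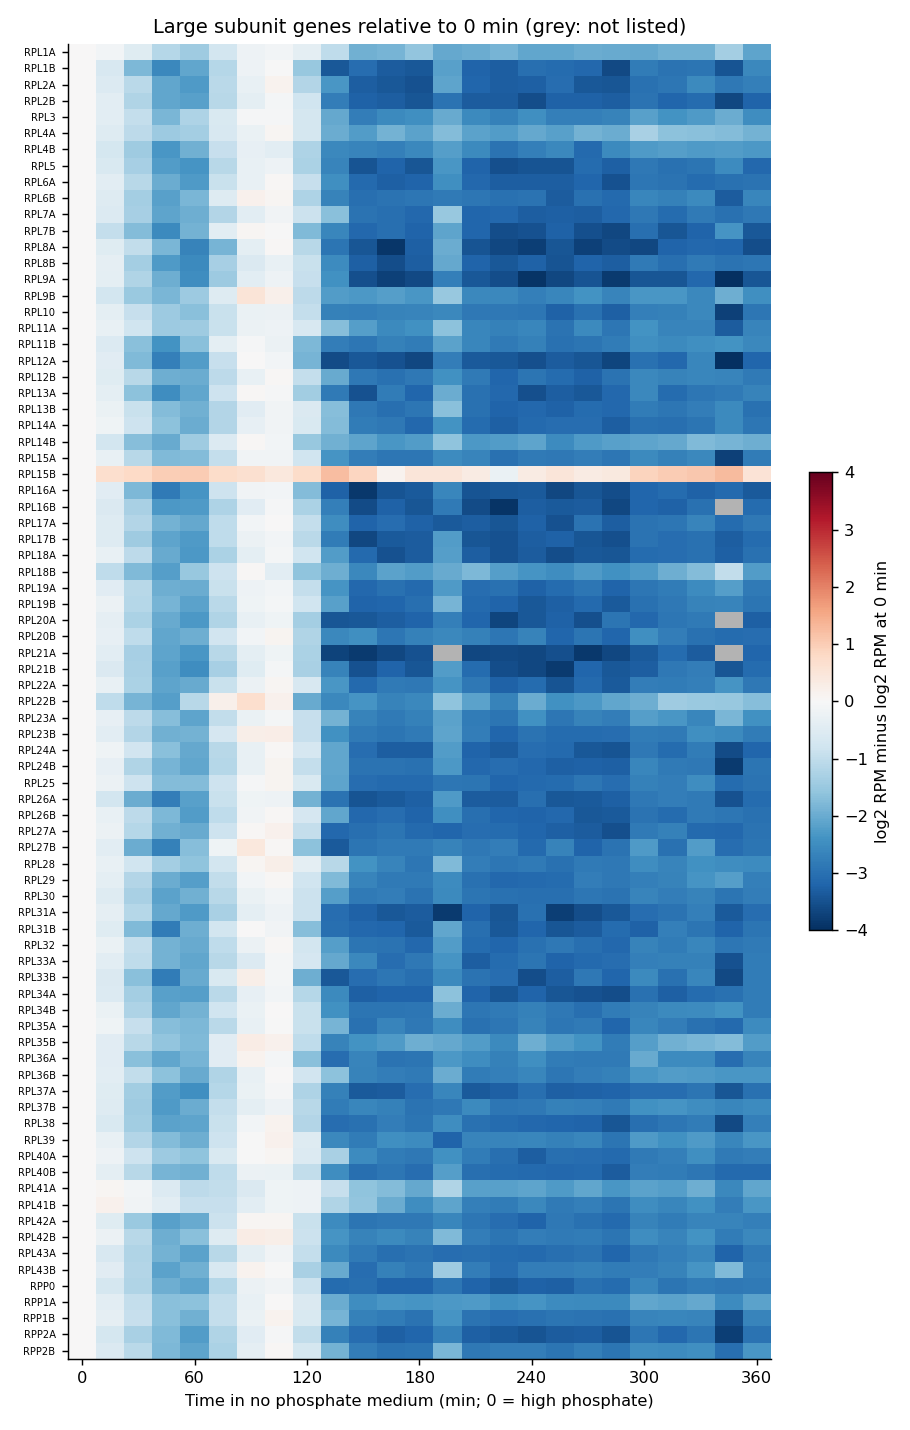
Difference of each gene from 0 min (log2 RPM, colour) by time in no phosphate medium (min); grey marks a value that was not listed. The drop to 60 min, the return at 90 and 105 min and the low level from 150 min on run through nearly all rows, and RPL15B is above 0 min at every time except 225 min.

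Late libraries were lower than early ones for 80 of 81 genes, against 8.85% of all genes tested lower, with a median of -1.98 (all genes 0.23). RPL9A (-2.44), RPL24A (-2.35), RPL21A (-2.28) and RPL8A (-2.27) were the lowest. RPL18B (-0.88), RPL22B (-0.96), RPL4A (-1.05) and RPL14B (-1.09) fell least. RPL22B had an adjusted p of 0.0182 by limma, and 0.137 without the 90 and 105 min libraries. RPL15B averaged 7.07 ± 0.35 log2 RPM late and 7.07 ± 0.19 early (SD, n = 8 each), with a 95% interval that reached 0.36 upward, and its sign differed between scalings. RPL28, the protein altered in cycloheximide-resistant yeast, averaged 9.82 ± 0.21 late and 11.85 ± 0.65 early, 4.10-fold lower (adjusted p = 2.88e-07 by limma). Between the late and the middle window 0 of 81 genes were called, against 0.906% of all genes lower and 1.17% higher. At an unadjusted p under 0.05 there were 3 of the 81, a smaller share than the 880 of all 4634 genes. The differences ran from -0.45 (RPL41A) to 0.47 (RPL22B).

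Within pairs, 12 of 35 A to B ratios changed between late and early libraries (limma on log2 A minus log2 B over 60 pairs of the whole table), against 25% of all pairs tested. RPL15 changed most: log2 A minus B was 2.15 ± 0.60 late and 4.15 ± 0.84 early (SD, n = 8 each), a 3.98-fold change (SE 0.29, adjusted p = 1.34e-05 by limma). RPL15A held 98.2% of the pair at 0 min, 94.0% in the early, 85.6% in the middle and 80.96% in the late window. The late libraries ran from 0.76 to 2.66 and the early ones from 3.004 to 5.22, without overlap.

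RPL18 (-1.30), RPL22 (-1.04), RPL14 (-1.02), RPL9 (-0.82), RPL35 (-0.57), RPL37 (-0.51), RPP2 (-0.44) and RPL8 (-0.42) also moved toward B. RPL22, whose protein is known to bind the intron-bearing transcript of RPL22B in yeast, had A minus B values of 1.47 to 2.05 late and 1.74 to 4.21 early, so the windows overlapped. RPL9 was at -1.66 to 0.00 late and -0.46 to 0.90 early. The windows also overlapped for RPL18 (0.44 to 1.97 late, 1.95 to 3.52 early) and RPL14 (0.27 to 0.91 late, 0.80 to 2.36 early). Inside the early window the ratios swung: RPL14 was at 2.33, 0.80 and 2.36 at 30, 75 and 120 min. RPL18 was at 3.44, 1.95 and 3.52 at 30, 60 and 120 min, and RPL22 at 3.58, 1.74 and 4.21 at 15, 75 and 120 min. These swings were not tested. RPL23 (0.47), RPL41 (0.50) and RPP1 (0.54) moved toward A. RPL41 was at 1.74 to 2.19 late and 1.41 to 1.57 early, without overlap. RPP1A held 72.9% of the RPP1 reads late and 65.0% early.

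Of the 12 pairs, 8 gained share for the copy that was lower at 0 min, against 3 of the 3 other pairs called. Over all 35 pairs 23 did, against 15 of the 25 other pairs tested, so these counts do not set the large subunit pairs apart. Shared reads limit these ratios. Only RPL22, RPP1 and RPP2 of the 12 have runs under 35 bases, and RPP1B and RPP2A share reads with each other. The calls of RPL35 and RPL8 did not hold when single libraries were left out: RPL35 without that at 15, 30, 45, 60, 105, 120, 255, 315, 330 or 345 min (adjusted p 0.0547 to 0.0918), RPL8 without that at 30, 45, 105, 270, 300 or 360 min (0.0558 to 0.0741). Against 0 min, 1 of 35 ratios was called, against 5% of all pairs: RPL15, at 2.15 late and 5.77 at 0 min, a difference of -3.62 (SE 0.61, adjusted p = 0.000171 by limma). Spread was wide there, with a median SE of 0.33.

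**Figure D5:**
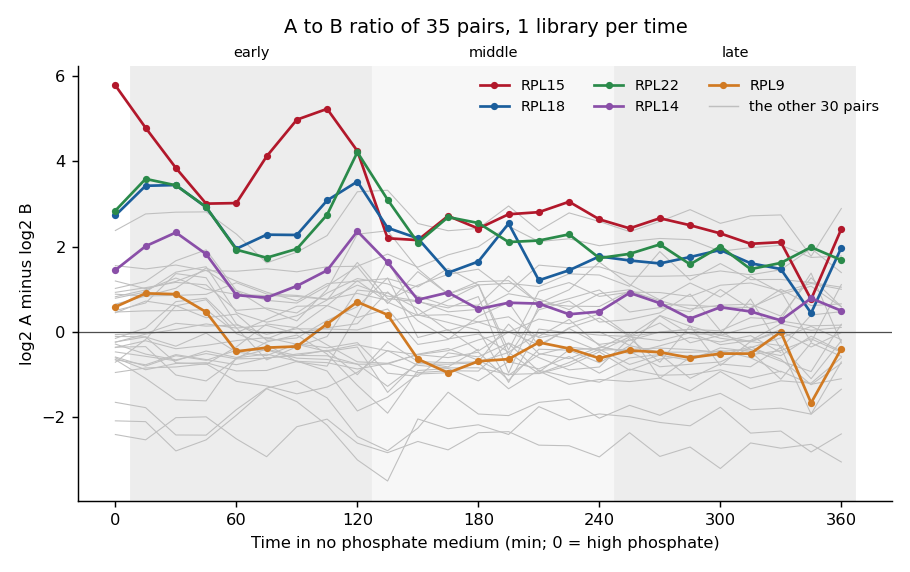
Log2 A minus log2 B of the 35 pairs against time in no phosphate medium (min; 0 is high phosphate, 1 library per time), with the 5 pairs of largest change from early to late in colour. RPL15 descends from 5.77 at 0 min to between 0.76 and 2.66 in the late window, with a return to 5.22 at 105 min.

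Levels of different proteins were compared per kb of coding sequence, with A and B added. RPL41 had the highest level, with 79035 ± 9526 RPM per kb late (SD, n = 8) and 386623 at 0 min. Its coding sequence is so short that reads outside it, if counted, would raise this value, and the counted region is not given in the sources used here. Among the other 45 proteins, with RPP1A and RPP1B summed, the highest level exceeded the lowest 14.6-fold late and 11.3-fold at 0 min. RPP1A and RPP1B together had 5245 ± 846 RPM per kb late and 28998 at 0 min (18804 and 10194 each at 0 min). RPL42, a protein of the tRNA exit site, had 4187 ± 480 late and 27654 at 0 min. RPL5 was lowest late (358 ± 70.8 RPM per kb). RPL4 stood at rank 35 of 46 late and at rank 46 at 0 min. These levels depend on the coding length used as divisor, which was 321 bases for RPP1 and RPL42, 894 for RPL5 and 1089 for RPL4. Before division, the 45 proteins other than RPL41 ran from 1557 (RPL29) to 9308 RPM (RPP1) at 0 min. The part of coding length in these ranks and spreads was not tested.

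Rap1 is the general activator at ribosomal protein promoters in yeast. Its motif was searched as CACCC, any 2 bases and ACA on both strands of the 450 bases before the coding start, and 17 of 81 large subunit genes (20.99%) held it, against 122 of 6000 genes of the annotation (2.03%). By the presence of introns, 15 of 53 genes with one held it and 2 of 28 without. The motif of Abf1, another general factor, searched as TCA, any base, T, any 4 bases and ACG, was in 4 of 81 (4.94%), against 8.88% of all genes. Both motifs stood together in 0 of the 81 promoters and in 13 of 6000 (0.217%). Stretches from 3 genes are shown (5′ to 3′ on the strand of the gene, capitals for the match): RPL8A, among the genes that fell most (VIII, 36216 to 36315, minus strand), RPL22B, among those that fell least (VI, 65123 to 65222, minus strand), and RPL13B, the 1 gene with 2 matches, of opposite strand (XIII, 551518 to 551637, minus strand):
RPL8A: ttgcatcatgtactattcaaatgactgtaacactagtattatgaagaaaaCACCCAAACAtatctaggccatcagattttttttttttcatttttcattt
RPL22B: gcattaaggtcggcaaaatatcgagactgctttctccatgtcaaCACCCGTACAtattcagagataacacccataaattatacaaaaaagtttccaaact
RPL13B: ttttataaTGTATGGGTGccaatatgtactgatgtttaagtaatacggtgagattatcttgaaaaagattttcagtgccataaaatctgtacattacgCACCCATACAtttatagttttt
Of the genes named above as lowest late, RPL8A held the Rap1 motif, while RPL9A, RPL21A, RPL16A, RPL12A and RPL16B did not. Of those that fell least, RPL22B held it, while RPL4A, RPL1A, RPL18B and RPL14B did not. Sites that depart from the searched letters were not counted. Whether the motif goes with the size of the fall was not tested.

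Most of the listed genes that act on these proteins were not called. Of 53 tested genes for assembly and export of the large subunit, 1 was lower late than at 0 min and 0 were higher (all genes: 5.46% lower, 25% higher). The lower gene was TIF6 (-0.75), which keeps the subunits apart until assembly ends. Their median was -0.95, with 52 of 53 below 0 and 9 at an unadjusted p under 0.05, against 1882 of all 4613 genes. The SE of these 53 genes had a median of 0.65, against 0.51 for the large subunit genes. In the early window the 53 genes also had a median of -0.95 relative to 0 min, beside -0.97 for the large subunit genes. All 53 were below 0 and 0 were called (2 at an unadjusted p under 0.05), against 0% of all genes lower and 0.694% higher. Late against early 0 were lower and 1, the helicase gene SPB4, was higher (0.86), against 8.85% of all genes lower and 31.5% higher. Of 18 tested regulators, 1 was lower late than at 0 min (UTP22, -2.02, a protein that also binds Ifh1) and 4 were higher (CBF1 2.57, STB3 1.37, TOR1 1.13 and FPR1 0.66), where 25% of all genes tested were higher, so the higher count is near the background. Against the early window UTP22 and HMO1 (-0.45), which binds many of these promoters, were lower and 7 were higher, with STB3 (1.12) highest, where 31.5% of all genes were higher. RAP1, FHL1 and IFH1 were not called in either comparison: against 0 min they stood at 0.40, 0.68 and -0.27.

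Of 3 tested chaperones that guard new large subunit proteins (RRB1 for RPL3, SQT1 for RPL10 and BCP1 for RPL23), 0 were called in either comparison by limma (at an unadjusted p under 0.05, 1 against 0 min and 0 against the early window). Their differences from 0 min were -1.39, -0.38 and -0.44. Of 7 tested genes that modify ribosomal proteins, ARD1, a subunit of an N-terminal acetylase, was lower late than early (-0.55) and 0 were called against 0 min, also at an unadjusted p under 0.05. For both lists, the shares of all genes called were 5.46% lower and 25% higher against 0 min, and 8.85% and 31.5% against the early window. Of 34 tested genes for the large subunit of the mitochondrial ribosome, 0 were lower and 3 higher late than at 0 min (all genes: 5.46% lower, 25% higher), with a median of 0.27. Late against early, 5 were lower and 2 higher (all genes: 8.85% lower, 31.5% higher).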

How the data were processed

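RNA from 25 libraries of 1 time course was sequenced. Per the submitters' processing notes, reads were aligned with Bowtie to build R64; the Bowtie version, annotation, counting tool and filters are not stated there. Values were deposited by the authors as log2 RPM (reads per 1000000 listed reads). They were taken as such because 2 raised to them summed to between 999809 and about 1000000 per library. Genes under 10 reads are not listed. The smallest listed value was taken as 10 reads, from the spacing of low values, which gave the depths and read numbers. Counting limits the precision of low genes, and the labels name no separate cultures. The p-values therefore reflect the scatter of these libraries alone. Within a window that scatter includes the change over time, because neighbouring times stand in for replicates, and the rest may be technical.

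Of 6701 rows, 51 had no name and 2 shared a name; 5897 names matched the RefSeq annotation. limma 3.58.1 (R 4.3.3) was run on all log2 values with 4 levels (0 min and windows of 8 times), Benjamini-Hochberg over all genes, threshold 0.05. The 0 min library has no spread of its own and borrows that of the windows. Genes entered with values in 6 or more of the 8 libraries of every window, and at 0 min where that was used; missing values were left out of a fit (RPL21A lacks 195 and 345 min, RPL16B and RPL20A 345 min). The same fit on log2 A minus log2 B covered 60 pairs. Genes were named by rank: the 6 lowest and 6 highest differences of each comparison, those not called, the stalk, the highest and lowest levels per kb, and the pairs of largest ratio or change; values at single times, RPL3, RPL5 and other genes named for their role were chosen after values were seen. Scripts were tested on simulated data. For the limma fits these were independent values without change inside a window, and only late minus early was simulated. They do not give the error rate of calls on a course that changes within windows, or of calls against 0 min. Members and lists were chosen with earlier results of these data known, and the windows were those of earlier work on these data. Alternatives covered scaling, filters, libraries left out, weights, prior and pair sums.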

Additional observations from a re-analysis of the deposited data

Results flagged for a closer look

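Of 45 groups of 8 libraries examined, 8 held a library that lay apart from the other 7 by Dixon's criterion, which flags about 5% of groups by chance. In the late window 4 of these were A minus B values (log2) at 345 min, the second shallowest library: RPL15 at 0.76 (others 2.06 to 2.66), RPL18 at 0.44 (others 1.47 to 1.97), RPL9 at -1.66 (others -0.61 to 0.00) and RPP1 at 1.95 (others 1.30 to 1.45). RPL15A and RPL15B held 61 and 36 reads there. In the middle window RPL14 stood at 1.63 at 135 min (others 0.41 to 0.92), RPL35 at 1.27 at 135 min (others -0.45 to 0.08), and the ratio of large to small subunit reads at 1.83 in the shallowest library, at 195 min (others 1.63 to 1.69). In the early window RPP1 stood at 1.15 at 60 min (others 0.77 to 0.90). The part of depth in these values was not tested.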

How the results depend on the processing

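Counts of lower genes ranged, with single libraries left out, over 79 to 80 (late minus 0 min), 80 to 80 (late minus early) and 0 to 0 (early minus 0 min, late minus middle), and counts of called ratios over 10 to 15 (late minus early) and 1 to 1 (late minus 0 min). Early minus 0 min gave 0 genes, 64 with array weights and 36 without 90 and 105 min, so this count depends on which libraries enter and how they are weighted. With pair sums, added after seeing the data, 46 of 46 proteins were lower in both late comparisons. Ratios called late minus early were 12, with 2 at every other time (RPL15 and RPL18), 0 of 2 pairs of mostly whole reads and 3 of 6 pairs with runs under 35 bases; against 0 min these were 1, with 0 of 2 and 0 of 6. Array weights called RPL22B and RPL4A higher late than in the middle window. RPL22B also missed the threshold late minus 0 min at every other time (adjusted p = 0.0725 by limma) and with missing values at the listing limit (0.0644), and RPL18B late minus early at every other time (0.118). Without 90 and 105 min the late minus early ratios of RPL23 (adjusted p = 0.0538 by limma) and RPL8 (0.0963) missed it. RPL8's also missed it with a trend and robust prior (0.0616), and RPL35's without 195 and 345 min (0.0891). Other ratios passed it: RPL27's without 60, 75, 90 or 315 min, RPL11's and RPL26's without 75 min, and RPL34's without 360 min or without 195 and 345 min. The causes were not tested. Of all alternative values of the 36 genes named by rule, 9 lost and 47 gained a call, and 0 reversed. No paired analysis was possible because the time points carry no shared replicate numbers and 0 min is 1 library. Depth limits ratios of low copies, above all at 195 and 345 min.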
